A study of Mus musculus with 24 samples.

Results

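Chemokines are small secreted proteins that draw leukocytes and progenitor cells towards their source, and 7 of their genes (Ccl2, Ccl7, Cxcl1, Cxcl2, Cxcl5, Cxcl10 and Cxcl12) were followed here together with Ackr3, the scavenger receptor that binds and removes CXCL12. These 8 genes, out of 49120 genes summed from the transcripts of each table, were taken by name, and no measured value entered the rule, although earlier results of these data were known when they were chosen. The RNA came from cultures of Ocy454, an osteocyte-like line of mouse origin, after treatment with lysophosphatidic acid (LPA, a bioactive phospholipid), 1,25-dihydroxyvitamin D (1,25D, the hormonal form of vitamin D), both agents or vehicle. At both 8 h and 2 h there were 3 libraries labelled 1,25D, 3 labelled LPA, 3 labelled with both agents and 3 labelled vehicle, which makes 24 libraries in 8 groups. All groups come from 1 cell line without further labelled genotype, and the sources used here state neither doses nor culture conditions. Whether the 3 libraries of each group stem from different cultures is not labelled, so every p-value measures the spread between these libraries, which may be technical.

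Chemokines are grouped by the spacing of their first cysteines. CCL2 and CCL7 mainly attract monocytes through CCR2, CXCL1, CXCL2 and CXCL5 attract neutrophils through CXCR2, and CXCL10 attracts activated T cells through CXCR3. CXCL12 retains haematopoietic progenitors in bone marrow through CXCR4, and ACKR3 takes up CXCL12 without classical G protein signalling. Several inflammatory chemokine genes are textbook targets of NF-kB and have short-lived transcripts, whereas Cxcl12 is made constitutively by bone marrow stromal cells and osteoblast-lineage cells.

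The 2 single treatments have to be read with a reservation about their labels. Cyp24a1, the 24-hydroxylase that 1,25D classically induces, had 102 estimated counts summed over the 8 h LPA-labelled libraries and 87 in those with both agents, against 1 in those with vehicle. The 8 h 1,25D-labelled libraries had 1 Cyp24a1 count, so Cyp24a1 goes against both single-treatment labels, and the codes in the names of the deposited tables (L for the 1,25D-labelled libraries, D for LPA-labelled ones) are exchanged relative to the titles as well. The groups are therefore called "labelled 1,25D" and "labelled LPA" throughout, and no direction below is assigned to the agent itself. Library totals lay between 32964439 and 33842037 estimated counts. The 8 h vehicle replicate 2 stood apart: it had the highest mitochondrial share (16.92%, against 9.01% in the lowest library). It also had the largest score (34.9) on the first component of the within-group deviations. Next in size on that component were the 8 h both agents replicate 2 (26) and the 8 h vehicle replicate 3 (-23.4). Of the markers of osteocytes and osteoblasts, Col1a1 was abundant (2892708 counts over all libraries). The late osteocyte genes Sost and Mepe had 30 counts and 1 count over all libraries. Of the same markers, Pdpn had 65104 counts, Dmp1 2068, Phex 491 and Fgf23 17. In bulk RNA, fewer cells of a type and less RNA per cell cannot be told apart.

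Promoter windows from RefSeq (build GRCm38.p6, 250 bases before to 50 bases after the gene start) were found for 5 of the 8 genes: Cxcl1, Cxcl2, Cxcl10, Cxcl12 and Ackr3. Those of Cxcl1, Cxcl2 and Cxcl10 are shown because they hold matches to the kB element, the DNA motif bound by NF-kB. In addition, 2 of these neighbours on chromosome 5 (Cxcl1 and Cxcl2) carry similar letters there and differ greatly in transcript level. Whether the letters bear on the level was not tested. Each window is written 5′ to 3′ in the direction of the gene. Capitals mark kB matches on either strand, with overlapping matches joined.
Cxcl1, chr5:90890995-90891294, plus strand: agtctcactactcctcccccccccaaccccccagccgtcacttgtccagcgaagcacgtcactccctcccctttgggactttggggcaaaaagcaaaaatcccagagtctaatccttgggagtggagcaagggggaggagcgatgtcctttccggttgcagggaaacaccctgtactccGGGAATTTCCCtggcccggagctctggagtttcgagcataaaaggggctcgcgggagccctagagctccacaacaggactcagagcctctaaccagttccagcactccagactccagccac
Cxcl2, chr5:90903649-90903948, plus strand: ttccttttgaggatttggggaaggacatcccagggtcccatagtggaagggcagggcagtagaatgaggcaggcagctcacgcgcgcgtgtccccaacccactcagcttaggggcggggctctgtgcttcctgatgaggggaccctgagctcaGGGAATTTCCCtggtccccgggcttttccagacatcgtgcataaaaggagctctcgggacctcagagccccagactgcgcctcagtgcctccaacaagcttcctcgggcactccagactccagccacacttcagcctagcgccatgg
Cxcl10, chr5:92348840-92349139, minus strand: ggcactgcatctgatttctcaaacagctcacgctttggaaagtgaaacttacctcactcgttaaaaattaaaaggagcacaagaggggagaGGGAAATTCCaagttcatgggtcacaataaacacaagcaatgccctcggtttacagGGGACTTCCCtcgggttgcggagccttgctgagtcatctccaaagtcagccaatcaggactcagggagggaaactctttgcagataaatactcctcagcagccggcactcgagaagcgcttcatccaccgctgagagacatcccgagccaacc

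The kB match of Cxcl1 begins at position -71 and that of Cxcl2 at position -97, counted from the first transcribed base as +1, and each holds a second, overlapping match on the other strand. Cxcl10 has 2 kB matches, at positions -159 and -103. No kB match was found in the Cxcl12 or Ackr3 window. The kB element was searched as a degenerate pattern of 10 letters on both strands, and 4.51% of all 32851 windows of the same length hold it. The Cxcl10 window also holds TGANTCA, the AP-1 site (position -74, in 7.81% of windows), and a match to the core of the interferon-stimulated response element (position -213, in 3.44%). Ackr3 holds TTGCNNAA, a C/EBP core (position -47, in 10.8% of windows), and the promoter element ATAAAAG, found in 5.42% of windows, lies in the Cxcl1, Cxcl2 and Ackr3 windows. These motifs were chosen after the windows were seen, and a match is a description of letters, not of a bound site.

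At 2 h the inflammatory chemokine genes were much higher in the 1,25D-labelled libraries than in vehicle: Ccl2 rose 4.46-fold, Ccl7 3.94-fold, Cxcl1 3.53-fold and Cxcl10 1.92-fold, and Ackr3 rose 1.45-fold. These were 5 of the 7 genes that passed the filter on low counts, with a median log2 fold change of 0.94 over the 7 against -0.00412 over all genes tested. Over all 16413 genes tested, 13.9% were called at an adjusted p under 0.05 (7.07% higher and 6.85% lower). The libraries with both agents had the same 5 genes called higher at 2 h, where 19.9% of all genes were called (9.90% higher). In the LPA-labelled libraries only Ackr3 was called at 2 h, where 0.786% of all genes were called (0.597% higher and 0.189% lower). Cxcl2, with 30 counts in all 24 libraries, did not pass the filter and was not tested.

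Ccl2, the main monocyte attractant of the set, had 1349, 1540 and 1737 TPM (the transcript share of a library, corrected for length) in the 2 h 1,25D-labelled libraries, 311, 286 and 285 in LPA-labelled ones, and 943, 1011 and 1135 in those with both agents, against 395, 356 and 334 in those with vehicle. All 1,25D-labelled libraries or with both agents lay above all vehicle libraries, and LPA-labelled ones lay just below them. The log2 fold change of Ccl2 against vehicle was 2.16 ± 0.12 (SE) in the 1,25D-labelled libraries (edgeR quasi-likelihood test, Benjamini-Hochberg adjusted p = 1.33e-11) and 1.58 ± 0.12 with both agents (edgeR adjusted p = 1.26e-09). In LPA-labelled ones it was -0.20 ± 0.11 (edgeR adjusted p = 0.440).

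Ccl7, a second monocyte attractant encoded beside Ccl2 on chromosome 11, had 278, 313 and 301 TPM in the 2 h 1,25D-labelled libraries, 69.6, 61.7 and 65.8 in LPA-labelled ones and 219, 236 and 259 in those with both agents, against 74.7, 81.9 and 79.9 in vehicle libraries. Its groups lay in the same order as those of Ccl2 at a lower TPM level, and no treated library overlapped vehicle. On the log2 scale Ccl7 stood at 1.98 ± 0.11 in the 1,25D-labelled libraries (edgeR adjusted p = 2.85e-11) and 1.67 ± 0.11 with both agents (edgeR adjusted p = 3.33e-10), against -0.16 ± 0.11 in LPA-labelled ones (edgeR adjusted p = 0.521).

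Cxcl1, a neutrophil attractant, had 539, 523 and 506 TPM in the 2 h 1,25D-labelled libraries, 104, 104 and 116 in LPA-labelled ones and 394, 433 and 421 in those with both agents, against 152, 153 and 156 in vehicle libraries. As log2 fold change Cxcl1 stood at 1.82 ± 0.11 in the 1,25D-labelled libraries (edgeR adjusted p = 4.31e-11) and the gene was 2.82-fold higher with both agents (edgeR adjusted p = 7.11e-10). All 3 LPA-labelled libraries lay below all 3 vehicle libraries for Cxcl1, with a log2 fold change of -0.40 ± 0.10 that did not pass the threshold (edgeR adjusted p = 0.0747); it did with DESeq2 (adjusted p = 0.0122), without the filter on low counts (0.0109) and when only the compared groups were fitted (0.0456).

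The other CXCR2 ligands were close to the limit of detection. The Cxcl2 window carries the same 11 capital letters as that of Cxcl1, and a link between these letters and the level was not tested. Cxcl2 had 3, 2 and 10 counts in the 2 h 1,25D-labelled libraries, 0, 0 and 5 in LPA-labelled ones and 0, 1 and 0 in those with both agents, against 2, 0 and 0 in vehicle libraries. The ratio of its summed counts, scaled by library totals, was 7.49 for the 1,25D-labelled libraries over vehicle, with an exact 95% interval of 1.74 to 67.5 that covers counting error only. A floor of 3 counts corresponds to between 0.0891 and 0.0915 CPM (counts scaled to the library total) in these libraries. Cxcl5 was tested but held only 235 counts over all libraries. It had 0.372, 0.466 and 0.425 TPM in the 2 h 1,25D-labelled libraries, 0.171, 0.115 and 0.187 in LPA-labelled ones and 0.381, 0.542 and 0.488 in those with both agents, against 0.483, 0.171 and 0.391 in vehicle libraries. Against vehicle its log2 fold changes had wide 95% intervals, from -0.56 to 1.35 in the 2 h 1,25D-labelled libraries and from -2.04 to 0.02 in LPA-labelled ones. The summed counts of Cxcl5 in the 2 h LPA-labelled libraries were 0.474 of those in vehicle, with an exact 95% interval of 0.263 to 0.825 that covers counting error only and not the spread between libraries.

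Cxcl10, a T cell attractant and a classical interferon target, had smaller fold changes at 2 h than Ccl2, Ccl7 and Cxcl1, a difference between genes that was not tested. It had 227, 205 and 222 TPM in the 2 h 1,25D-labelled libraries, 115, 113 and 106 in LPA-labelled ones and 181, 185 and 205 in those with both agents, against 118, 127 and 112 in vehicle libraries. The 1,25D-labelled libraries and those with both agents lay above vehicle, whereas LPA-labelled ones overlapped it. For Cxcl10 the value on the log2 scale was 0.94 ± 0.09 in the 1,25D-labelled libraries (edgeR adjusted p = 6.21e-08), -0.01 ± 0.09 in LPA-labelled ones (edgeR adjusted p = 0.981) and 0.76 ± 0.09 with both agents (edgeR adjusted p = 1.01e-06).

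Cxcl12, the homeostatic chemokine of the set, moved against the others at 2 h without passing the threshold. It had 363, 350 and 334 TPM in the 1,25D-labelled libraries, 453, 432 and 418 in LPA-labelled ones and 354, 338 and 369 in those with both agents, against 421, 417 and 420 in vehicle libraries. The 1,25D-labelled libraries and those with both agents lay below all vehicle libraries, with log2 fold changes of -0.20 ± 0.07 (edgeR adjusted p = 0.0510) and -0.17 ± 0.07 (edgeR adjusted p = 0.0680), both of which passed with DESeq2 (adjusted p = 0.0203 and 0.0324). Without the both agents replicate 3 the value for Cxcl12 with both agents was -0.24 (edgeR adjusted p = 0.0324).

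Ackr3 was the lowest of the well measured genes of the set and was called higher in all 3 treatments at 2 h. It had 5.89, 5.72 and 6.53 TPM in the 1,25D-labelled libraries, 6.67, 4.84 and 6.29 in LPA-labelled ones and 8.73, 8.93 and 9.92 in those with both agents, against 4.41, 3.94 and 4.33 in vehicle libraries. Every treated library lay above every vehicle library, and those with both agents lay above all others. The log2 fold change of Ackr3 was 0.53 ± 0.10 in the 1,25D-labelled libraries (edgeR adjusted p = 0.00117), 0.60 ± 0.10 in LPA-labelled ones (edgeR adjusted p = 0.00389) and 1.15 ± 0.10 with both agents (edgeR adjusted p = 4.48e-08). Without replicate 3 of the LPA-labelled libraries the second value was 0.55 (edgeR adjusted p = 0.0572), and when only the compared groups were fitted it was 0.58 (edgeR adjusted p = 0.0764), so that this Ackr3 call was lost in both cases.

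**Figure D1:**
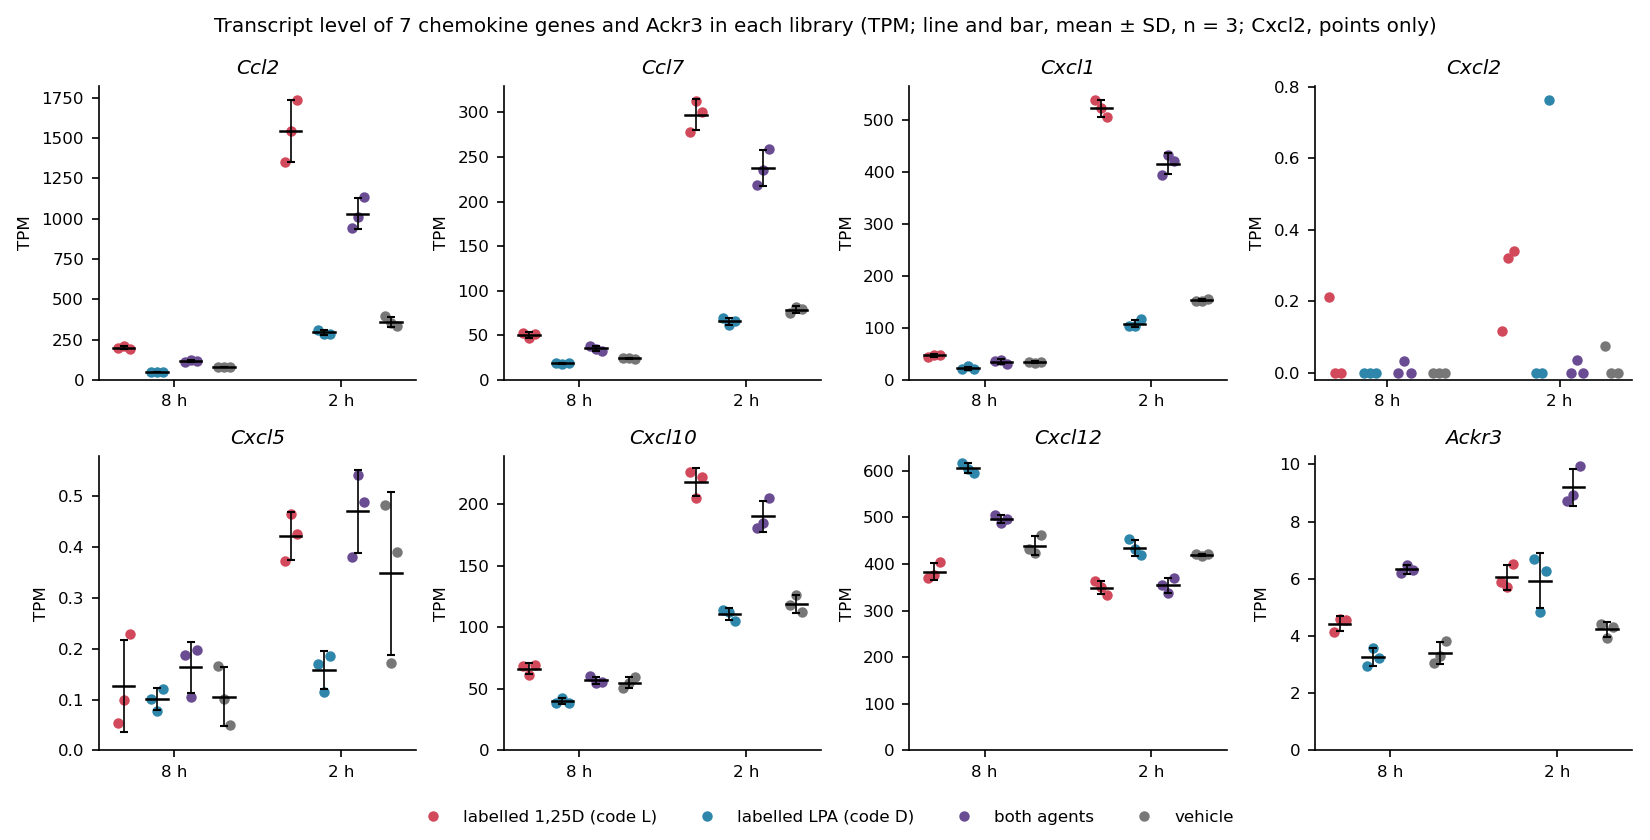
Level of the 8 genes in each of the 24 libraries, in TPM on linear axes that differ between panels. Points are libraries, horizontal lines and bars are mean ± SD (n = 3; for Cxcl2, points only), and colours are the groups. Ccl2, Ccl7, Cxcl1 and Cxcl10 are highest in the 2 h 1,25D-labelled libraries and with both agents, Cxcl12 is highest in the 8 h LPA-labelled libraries, and Ackr3 is highest with both agents at each time.

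At 8 h the treatments differed in direction. In the 1,25D-labelled libraries, Ccl2 (2.49-fold), Ccl7 (2.02-fold), Cxcl1 (1.33-fold) and Ackr3 (1.29-fold) were called higher than in vehicle and Cxcl12 (0.873-fold) lower, which is 5 of 7 tested genes, where 16.2% of all genes were called (7.90% higher and 8.34% lower). In the LPA-labelled libraries, Ccl2 (0.569-fold), Cxcl1 (0.598-fold), Cxcl10 (0.664-fold) and Ccl7 (0.705-fold) were lower and Cxcl12 (1.33-fold) higher, again 5 of 7, where 12.0% of all genes were called (6.63% higher and 5.38% lower). With both agents, Ackr3 (1.96-fold), Ccl2 (1.59-fold), Ccl7 (1.52-fold) and Cxcl12 (1.25-fold) were higher, 4 of 7, where 16.8% of all genes were called (9.56% higher and 7.25% lower). The median log2 fold changes over the 7 genes were 0.36, -0.50 and 0.61 in these 3 comparisons, against 0.0015, 0.00262 and 0.025 over all genes tested.

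Ccl2 had 196, 209 and 195 TPM in the 8 h 1,25D-labelled libraries, 50.2, 46.7 and 47.1 in LPA-labelled ones and 112, 124 and 119 in those with both agents, against 77.8, 77.1 and 78.3 in vehicle libraries. None of the 4 groups overlapped another. The log2 fold change of Ccl2 was 1.32 ± 0.12 in the 1,25D-labelled libraries (edgeR adjusted p = 1.03e-07), -0.81 ± 0.12 in LPA-labelled ones (edgeR adjusted p = 3.86e-05) and 0.67 ± 0.12 with both agents (edgeR adjusted p = 0.000201).

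Ccl7 had 52.5, 47.0 and 52.0 TPM in the 8 h 1,25D-labelled libraries, 19.4, 17.6 and 18.8 in LPA-labelled ones and 38.1, 35.1 and 32.7 in those with both agents, against 24.9, 24.5 and 23.2 in vehicle libraries. The order of the groups was that of Ccl2, again without overlap. Its log2 fold change was 1.01 ± 0.11 in the 1,25D-labelled libraries (edgeR adjusted p = 3.24e-06), -0.50 ± 0.12 in LPA-labelled ones (edgeR adjusted p = 0.00633) and 0.61 ± 0.12 with both agents (edgeR adjusted p = 0.000580). Without the 8 h vehicle replicate 2, the library that stood apart, the Ccl7 value in the LPA-labelled libraries was -0.41 (edgeR adjusted p = 0.0583). When only the compared groups were fitted, Ccl7 lost its call in the LPA-labelled libraries (-0.50, edgeR adjusted p = 0.137) and with both agents (0.60, edgeR adjusted p = 0.0625).

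Cxcl1 had 44.2, 48.6 and 48.7 TPM in the 8 h 1,25D-labelled libraries, 20.1, 26.2 and 20.5 in LPA-labelled ones and 36.5, 38.7 and 31.0 in those with both agents, against 35.2, 32.7 and 35.2 in vehicle libraries. Libraries with both agents overlapped vehicle, 1,25D-labelled ones lay above it and LPA-labelled ones below it. As log2 fold change Cxcl1 stood at 0.41 ± 0.11 in the 1,25D-labelled libraries (edgeR adjusted p = 0.0114), -0.74 ± 0.11 in LPA-labelled ones (edgeR adjusted p = 5.2e-05) and 0.10 ± 0.11 with both agents (edgeR adjusted p = 0.642).

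Cxcl10 had 69.0, 61.1 and 69.1 TPM in the 8 h 1,25D-labelled libraries, 38.7, 42.8 and 38.6 in LPA-labelled ones and 60.4, 55.2 and 55.4 in those with both agents, against 51.1, 54.7 and 59.6 in vehicle libraries. It was called only in the LPA-labelled libraries, with a log2 fold change of -0.59 ± 0.09 (edgeR adjusted p = 5.41e-05). Its value was 0.22 ± 0.09 in the 1,25D-labelled libraries (edgeR adjusted p = 0.0916) and 0.11 ± 0.09 with both agents (edgeR adjusted p = 0.447). Without the 8 h vehicle replicate 2 the Cxcl10 value in the 1,25D-labelled libraries was 0.32 (edgeR adjusted p = 0.0269).

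Cxcl2 had 6, 0 and 0 counts in the 8 h 1,25D-labelled libraries, 0 in each labelled LPA and 0, 1 and 0 in those with both agents, against 0 in each vehicle library. Cxcl5 had between 0.0542 and 0.229 TPM in the 8 h 1,25D-labelled libraries, between 0.0783 and 0.122 in LPA-labelled ones and between 0.105 and 0.197 in those with both agents, against 0.0499 to 0.166 in vehicle libraries. The groups of Cxcl5 overlapped, and the 95% interval of its log2 fold change with both agents ran from -0.37 to 1.88.

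Cxcl12 had 370, 377 and 403 TPM in the 8 h 1,25D-labelled libraries, 616, 604 and 595 in LPA-labelled ones and 504, 487 and 497 in those with both agents, against 431, 424 and 462 in vehicle libraries. The LPA-labelled libraries were the highest of all 8 groups, and no treated library overlapped vehicle. The log2 fold change of Cxcl12 was 0.41 ± 0.07 in the LPA-labelled libraries (edgeR adjusted p = 0.000125) and 0.32 ± 0.07 with both agents (edgeR adjusted p = 0.00139). Both Cxcl12 calls were lost when only the compared groups were fitted (0.42, edgeR adjusted p = 0.0629, and 0.31, edgeR adjusted p = 0.131). In the 1,25D-labelled libraries it was -0.20 ± 0.07 (edgeR adjusted p = 0.0456), a call near the threshold that was lost without any 1 of 5 of the 6 libraries compared; without the vehicle replicate 2 it was -0.12 (edgeR adjusted p = 0.353).

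Ackr3 had 4.12, 4.60 and 4.56 TPM in the 8 h 1,25D-labelled libraries, 2.97, 3.58 and 3.24 in LPA-labelled ones and 6.19, 6.50 and 6.32 in those with both agents, against 3.06, 3.30 and 3.83 in vehicle libraries. Libraries labelled LPA overlapped vehicle, 1,25D-labelled ones lay above it and those with both agents lay above every other 8 h library. The log2 fold change of Ackr3 was 0.97 ± 0.11 with both agents (edgeR adjusted p = 6.45e-07) and -0.16 ± 0.11 in the LPA-labelled libraries (edgeR adjusted p = 0.321). In the 1,25D-labelled libraries it was 0.36 ± 0.11 (edgeR adjusted p = 0.0234), and that call was lost in turn without the vehicle replicates 1 (0.30, edgeR adjusted p = 0.124) and 3 (0.31, edgeR adjusted p = 0.0753) and without the labelled 1,25D replicates 1 (0.38, edgeR adjusted p = 0.0584) and 2 (0.31, edgeR adjusted p = 0.0917), and when only the compared groups were fitted (0.36, edgeR adjusted p = 0.126).

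**Figure D2:**
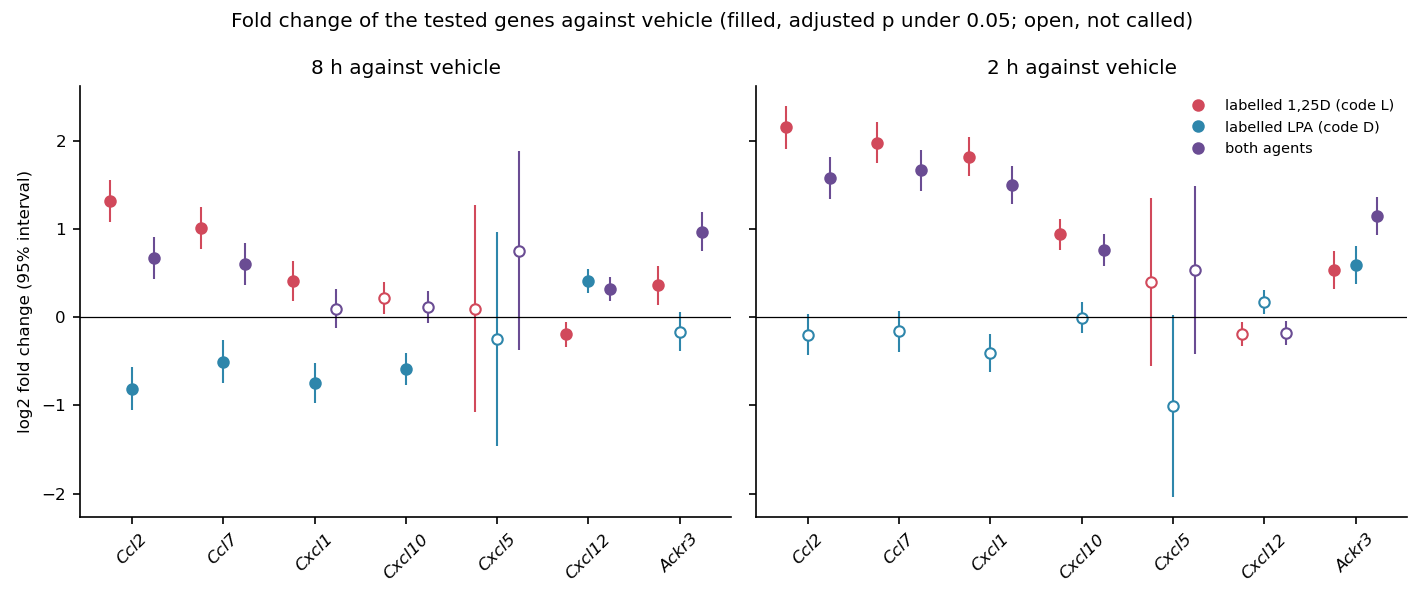
Log2 fold change against vehicle of the 7 tested genes at 8 h (left) and 2 h (right), with 95% intervals from the edgeR fit of all 24 libraries. Filled points passed an adjusted p of 0.05 over 16413 genes and open points did not. At 2 h the 1,25D-labelled libraries and those with both agents lie far above 0 for Ccl2, Ccl7, Cxcl1 and Cxcl10, and at 8 h the LPA-labelled libraries lie below 0 for the same 4 genes.

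The transcripts of Cxcl12 did not move as 1. Its 2 main coding transcripts are 1878 and 3132 nucleotides long. At 8 h the longer one supplied 36.7 ± 0.5% of the Cxcl12 TPM in the 1,25D-labelled libraries, 38.6 ± 1.1% in LPA-labelled ones and 41.5 ± 0.4% in those with both agents, against 32.9 ± 1.5% in vehicle libraries (SD, n = 3 each). The share was between 41.28% and 41.96% with both agents, against 31.19% to 33.89% with vehicle, and none of the 3 treated groups overlapped vehicle; no test was made on this share. The share of the shorter transcript was lower in turn, at 54.1 ± 1.1% with both agents against 63.3 ± 1.6% with vehicle. At 2 h the share of the longer transcript was between 32.07% and 39.26% in treated libraries and between 34.78% and 36.78% in vehicle libraries. A longer transcript gives more reads per molecule. When counts were scaled from TPM, the 8 h log2 fold change of Cxcl12 with both agents was 0.22 (edgeR adjusted p = 0.0650) instead of 0.32. Whether the transcript shares account for this difference was not tested.

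**Figure D3:**
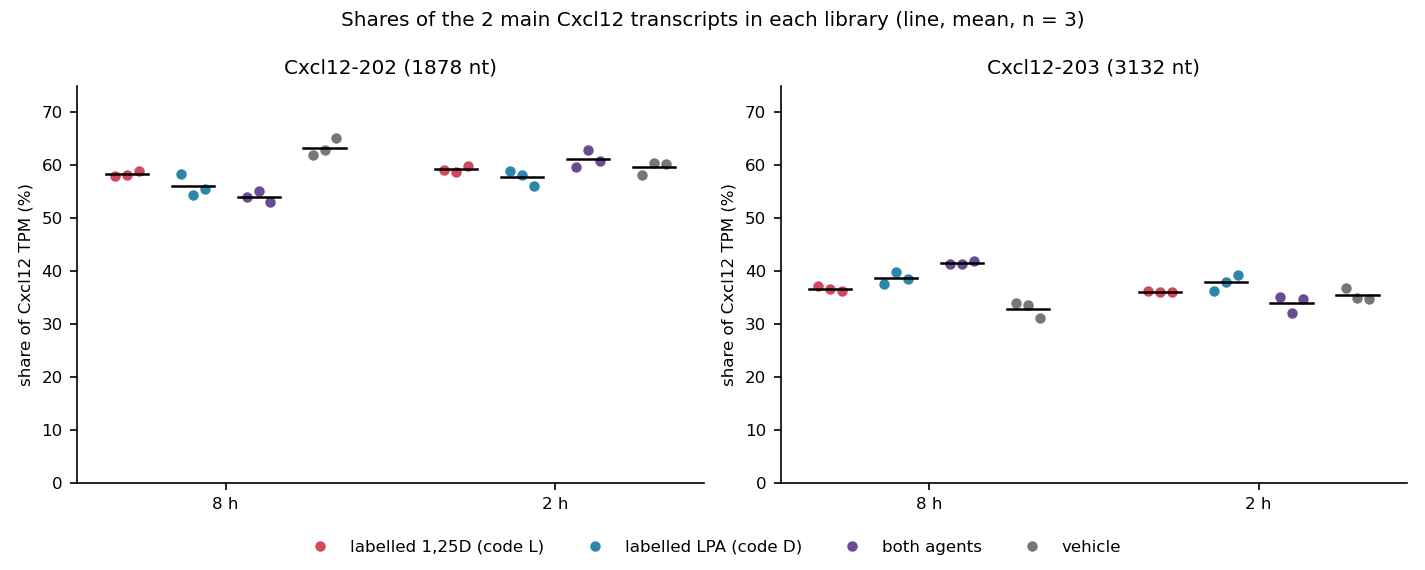
Share of Cxcl12 TPM from its 2 main transcripts in each library, in percent, with points for libraries and lines for the mean of 3. At 8 h the share of the longer transcript is at least 36.30% in every treated library and at most 33.89% in every vehicle library, whereas at 2 h the groups overlap.

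In Ccl2, Ccl7, Cxcl1, Cxcl10 and Ackr3 a single transcript gave most of the TPM in every group. The main coding transcript of Ccl2 gave between 95.72% and 98.55% of Ccl2 TPM over all libraries. For Cxcl1, the transcript with a retained intron gave 6.43 ± 1.16% of Cxcl1 TPM at 8 h against 2.99 ± 0.04% at 2 h in the 1,25D-labelled libraries, and 6.51 ± 0.67% at 8 h against 3.53 ± 0.80% at 2 h in vehicle libraries (SD, n = 3 each). At the low counts of Cxcl5, its coding transcript gave 51.6 ± 18.6% of Cxcl5 TPM and its retained-intron transcript the rest in the 8 h libraries with both agents. The retained-intron share of Cxcl1 was thus higher at 8 h in both groups while the level of the gene was lower; no test was made on it.

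The libraries with both agents were then set against each single treatment. At 2 h, Ackr3 was higher with both agents than in the 1,25D-labelled libraries (log2 fold change 0.62 ± 0.10, edgeR adjusted p = 0.00198) and Ccl2 was lower (-0.57 ± 0.11, edgeR adjusted p = 0.0102). These were 2 of 7 tested genes, where 0.768% of all genes were called (0.609% higher and 0.158% lower). The Ccl2 call was lost without the labelled 1,25D replicate 3 (-0.46, edgeR adjusted p = 0.119), the both agents replicate 1 (-0.49, edgeR adjusted p = 0.0842) or the both agents replicate 2 (-0.57, edgeR adjusted p = 0.0641). In TPM, Ccl7, Cxcl1 and Cxcl10 also lay lower in every library with both agents than in every library labelled 1,25D. Their log2 fold changes of -0.31, -0.32 and -0.18 did not pass. In CPM only Cxcl1 stayed apart. Cxcl10 had 171.5 CPM in the both agents replicate 3 and 164.9 in the labelled 1,25D replicate 2 (204.8 and 205.2 TPM). Ccl7 had 147.2 CPM in the both agents replicate 3 and 146.0 in the labelled 1,25D replicate 1. How many of all genes separate in this way was not counted. Against the LPA-labelled libraries at 2 h, all 7 tested genes were called, where 18.7% of all genes were called (9.23% higher and 9.48% lower): Cxcl1 (1.90 ± 0.11), Ccl7 (1.83 ± 0.11), Ccl2 (1.78 ± 0.12), Cxcl5 (1.54 ± 0.49), Cxcl10 (0.77 ± 0.09) and Ackr3 (0.55 ± 0.10) were higher on the log2 scale and Cxcl12 (-0.34 ± 0.07) was lower. The Cxcl5 call (edgeR adjusted p = 0.0307) was lost without any 1 of 5 of the 6 libraries, with log2 fold changes between 1.37 and 1.69. It was also lost without the filter on low counts and with counts scaled from TPM.

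At 8 h, Ackr3 (0.61 ± 0.10, edgeR adjusted p = 0.000388) and Cxcl12 (0.51 ± 0.07, edgeR adjusted p = 1.06e-05) were higher with both agents than in the 1,25D-labelled libraries. Ccl2 (-0.65 ± 0.11, edgeR adjusted p = 0.000505) and Ccl7 (-0.40 ± 0.11, edgeR adjusted p = 0.0255) were lower, which makes 4 of 7, where 9.19% of all genes were called (5.75% higher and 3.44% lower). The Ccl7 call was lost without the labelled 1,25D replicates 1 (-0.37, edgeR adjusted p = 0.113) or 3 (-0.41, edgeR adjusted p = 0.0739) and without the both agents replicates 1 (-0.45, edgeR adjusted p = 0.0523) or 3 (-0.32, edgeR adjusted p = 0.0960). Cxcl1 was lower by a log2 value that did not pass (-0.31, edgeR adjusted p = 0.0695) and did pass with DESeq2 (adjusted p = 0.0278) and without the both agents replicate 2 (-0.48, edgeR adjusted p = 0.00233). Against the LPA-labelled libraries at 8 h, Ccl2 (1.49 ± 0.12), Ackr3 (1.13 ± 0.11), Ccl7 (1.11 ± 0.12), Cxcl1 (0.84 ± 0.11) and Cxcl10 (0.71 ± 0.09) were higher on the log2 scale, 5 of 7, where 22.9% of all genes were called (14.0% higher and 8.91% lower). Cxcl12 stood at -0.10 ± 0.07 in that comparison, with a 95% interval from -0.23 to 0.04 (edgeR adjusted p = 0.303).

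**Figure D4:**
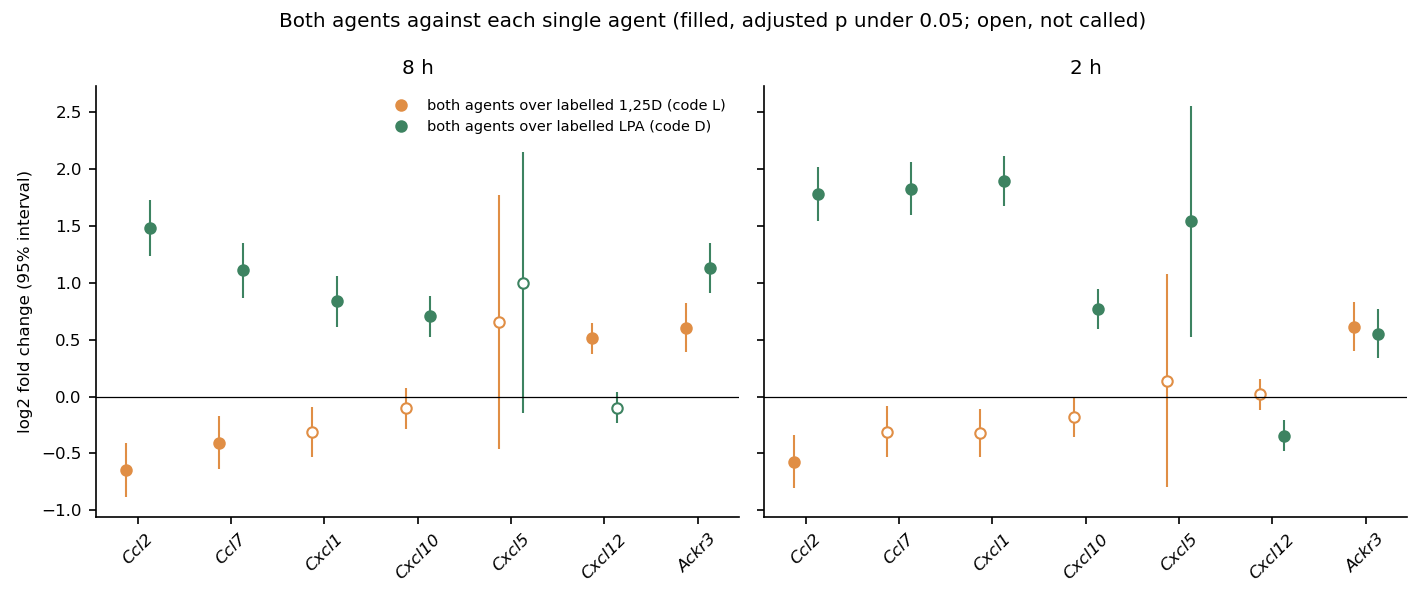
Log2 fold change of the libraries with both agents over each group with a single treatment at 8 h (left) and 2 h (right), with 95% intervals and filled points for an adjusted p under 0.05. Ackr3 lies above 0 in all 4 comparisons, and Ccl2 lies below 0 against the 1,25D-labelled libraries and above 0 against LPA-labelled ones.

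Whether the combined value departed from the sum of the single log2 effects was tested as an interaction. At 8 h the combined effect on Ackr3 exceeded that sum by 0.77 ± 0.15 (edgeR adjusted p = 0.0175) and that on Cxcl10 by 0.49 ± 0.12 (edgeR adjusted p = 0.0368), which were 2 of 7 genes, where 7.74% of all genes were called (4.10% higher and 3.64% lower). The Ackr3 call was lost without the vehicle replicate 2 (0.66, edgeR adjusted p = 0.0575), the labelled 1,25D replicate 3 (0.74, edgeR adjusted p = 0.0560), the labelled LPA replicate 2 (0.77, edgeR adjusted p = 0.0665) or the both agents replicate 2 (0.70, edgeR adjusted p = 0.0613). The Cxcl10 call was lost without any 1 of 8 of the 12 libraries at 8 h, with values between 0.40 and 0.55. With only the 8 h groups fitted, both calls were lost (Ackr3 0.76, edgeR adjusted p = 0.105; Cxcl10 0.48, edgeR adjusted p = 0.132). At 2 h edgeR called 0 of the 7 genes for the interaction, where 0.0366% of all genes were called (0.0244% higher and 0.0122% lower), DESeq2 called 0, and 1 of the 7 (Ccl2, -0.38 ± 0.16) had an unadjusted p under 0.05. The 2 h interaction of Ackr3 was 0.02, with a 95% interval from -0.29 to 0.33.

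The inflammatory chemokines were also much lower at the later time in the vehicle libraries. Compared with 2 h, Ccl2 (log2 fold change -2.11 ± 0.12), Cxcl1 (-2.00 ± 0.11), Ccl7 (-1.59 ± 0.12) and Cxcl10 (-0.99 ± 0.09) were lower in the 8 h vehicle libraries, 4 of 7 tested genes, where 14.6% of all genes were called (5.88% higher and 8.71% lower), with edgeR adjusted p between 1.01e-10 and 7.4e-08. Ccl2 averaged 77.7 ± 0.6 TPM in 8 h vehicle libraries and 361 ± 31 TPM in 2 h vehicle libraries (SD, n = 3 each). Cxcl12 (0.15 ± 0.07, edgeR adjusted p = 0.149), Ackr3 (-0.22 ± 0.11, edgeR adjusted p = 0.185) and Cxcl5 (-1.52 ± 0.52, edgeR adjusted p = 0.0528) did not pass, though Cxcl5 did without the 2 h vehicle replicate 2 (-1.83, edgeR adjusted p = 0.0302).

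The effects of the treatments also differed between the times. The effect in the 1,25D-labelled libraries was smaller at 8 h than at 2 h for Cxcl1 (difference of log2 effects -1.41 ± 0.15), Ccl7 (-0.97 ± 0.16), Ccl2 (-0.84 ± 0.16) and Cxcl10 (-0.72 ± 0.12), 4 of 7, where 4.17% of all genes were called (1.33% higher and 2.84% lower). With both agents the same 4 genes had smaller effects at 8 h (Cxcl1 -1.40 ± 0.15, Ccl7 -1.06 ± 0.16, Ccl2 -0.91 ± 0.16 and Cxcl10 -0.65 ± 0.12) and Cxcl12 a more positive one (0.49 ± 0.09), 5 of 7, where 9.68% of all genes were called (5.57% higher and 4.11% lower). In the LPA-labelled libraries the effects on Ackr3 (-0.76 ± 0.15), Ccl2 (-0.61 ± 0.16) and Cxcl10 (-0.59 ± 0.12) were lower at 8 h than at 2 h, 3 of 7, where 6.75% of all genes were called (3.75% higher). The Ccl2 call for the LPA-labelled libraries (edgeR adjusted p = 0.0280) was lost without any 1 of 7 of the 12 libraries, with values between -0.64 and -0.53. That of Cxcl12 with both agents was lost when only the compared groups were fitted (0.48, edgeR adjusted p = 0.0549). These 3 comparisons share the vehicle libraries.

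The order of the 8 groups by mean TPM was the same for Ccl2 and Ccl7: 2 h labelled 1,25D, 2 h both agents, 2 h vehicle, 2 h labelled LPA, 8 h labelled 1,25D, 8 h both agents, 8 h vehicle and 8 h labelled LPA. For these 2 genes every neighbouring pair of groups was apart in range and by more than the sum of the SDs. Cxcl1 had that order too, but its 8 h libraries with both agents and with vehicle overlapped. Cxcl10 had the same order with overlaps between 2 h vehicle and 2 h labelled LPA and between 8 h both agents and 8 h vehicle. In Ackr3 the 2 h and then the 8 h libraries with both agents led, and the 8 h libraries with both agents overlapped 1,25D-labelled ones at 2 h. Cxcl12 led in the 8 h LPA-labelled libraries (605 ± 11 TPM) and was lowest in the 2 h 1,25D-labelled libraries (349 ± 15 TPM).

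These changes altered which chemokine was the most abundant transcript of the 7. Ccl2 made up 52.5 ± 3.5% of their summed TPM in the 2 h 1,25D-labelled libraries and 31.9 ± 1.9% in 2 h vehicle libraries (SD, n = 3 each). Cxcl12 made up 12.0 ± 1.2% in the same 1,25D-labelled libraries and 37.1 ± 1.0% in those with vehicle. At 8 h Cxcl12 made up 82.4 ± 0.4% in the LPA-labelled libraries, 66.8 ± 0.9% with both agents and 51.3 ± 1.1% in the 1,25D-labelled libraries, against 69.6 ± 0.5% with vehicle.

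Over the 24 libraries, which share 8 group means and both times, Ccl2, Ccl7, Cxcl1 and Cxcl10 followed each other closely in log2 CPM, with Pearson r between 0.976 and 0.994 for their pairs. Cxcl12 ran against these 4 (r between -0.817 and -0.785), and Ackr3 followed them less closely (r between 0.639 and 0.709). Among genes averaging 1 CPM or more, the 3 most similar to each member were taken: Plaur, the urokinase receptor, was nearest to all 4 inflammatory chemokines (r between 0.985 and 0.990). The next were Slc11a2 and Hbegf for Ccl2, Ell2 for Ccl7, Tnfaip3 and Bcl10 for Cxcl1, and Arf2 and Rasa2 for Cxcl10. Snapin (r = 0.978), Ak3 and Sesn1 were nearest to Cxcl12, and Wdr36 (r = 0.930), Noc3l and Ube2f to Ackr3. These values describe likeness over the same libraries and were not tested.

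Other chemokine genes were also higher in the 2 h 1,25D-labelled libraries, where 7.07% of all genes were called higher and 6.85% lower. Of 19 other CC chemokine genes 6 were tested, and 4 of these (Ccl9, Ccl20, Ccl3 and Ccl5) were higher in the 2 h 1,25D-labelled libraries than in vehicle. Ccl9 stood at a log2 fold change of 1.07 ± 0.15 and Ccl20, an attractant of CCR6-bearing cells, at 2.27 ± 0.51. Ccl3 had 39 counts over the 3 1,25D-labelled libraries against 2 over those with vehicle. With both agents at 2 h it had 51, and no library of another group had more than 5. Its place among the 6 tested genes therefore rested on the libraries in which it was high. Of 12 other CXC, CX3C and XC genes 8 were tested and 3 were higher at 2 h in the 1,25D-labelled libraries, among them Cx3cl1 (1.13 ± 0.19), the membrane-bound fractalkine. Cx3cl1 averaged 231 ± 14 TPM in those libraries and 104 ± 27 TPM in 2 h vehicle libraries (SD, n = 3 each), which is of the order of Cxcl10. At 8 h Ccl9 was higher with both agents (1.93 ± 0.15) and in the 1,25D-labelled libraries (1.57 ± 0.15), and Cxcl14 was higher in the 1,25D-labelled libraries (1.85 ± 0.13) and lower in LPA-labelled ones (-0.68 ± 0.14).

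The receptors through which the secreted members signal were barely measured. Of 18 signalling chemokine receptors the highest count in any library was 30, for Ccr10. Cxcr4, the receptor of CXCL12, had 102 counts over all 24 libraries, Cxcr2, that of CXCL1, CXCL2 and CXCL5, had 156, Cxcr3, that of CXCL10, had 157, and Ccr2, that of CCL2 and CCL7, had 62. Ackr3 itself had 10631. Among the genes that handle chemokines at the cell surface or inside the cell was Sdc4, a heparan sulphate proteoglycan. Sdc4 was higher in the 2 h 1,25D-labelled libraries (1.10 ± 0.07 on the log2 scale) and in the 8 h libraries with both agents (0.74 ± 0.07). It was also called higher with both agents at 2 h and in the 8 h 1,25D-labelled libraries. Arrb1, a beta-arrestin that binds ACKR3, was higher than in vehicle at 8 h in the LPA-labelled libraries (1.16 ± 0.08) and with both agents (0.79 ± 0.08). It was lower in the 8 h 1,25D-labelled libraries (-0.26 ± 0.08). At 2 h Arrb1 was called lower with both agents. Arrb2, from the same list, was called lower at 2 h with both agents and in the 1,25D-labelled libraries.

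Regulators of chemokine transcription and decay were called in several comparisons. Of 14 NF-kB subunits and feedback genes, 10 were higher and 1 lower in the 2 h 1,25D-labelled libraries, with a median log2 fold change of 0.66, where 7.07% of all genes were called higher and 6.85% lower. Nfkbiz, a nuclear co-activator of NF-kB, stood at 1.53 ± 0.08, Traf1 at 1.36 ± 0.15 and Tnfaip3, which encodes the feedback inhibitor A20, at 1.02 ± 0.09. In vehicle libraries 11 of these 14 were lower at 8 h than at 2 h and 1 was higher, where 8.71% of all genes were called lower and 5.88% higher. In the 8 h LPA-labelled libraries, 2 of the 14 (Nfkbiz and Nfkbia) were higher and 3 (Tnfaip3, Nfkbie and Tnip1) lower. The median of the 14 was 0.13. Ccl2, Ccl7, Cxcl1 and Cxcl10 were lower in these libraries, where 6.63% of all genes were called higher and 5.38% lower. With both agents at 8 h 4 were higher and 2 lower, where 9.56% of all genes were called higher and 7.25% lower. Of 7 genes for proteins that bind AU-rich or stem-loop elements of short-lived transcripts, 4 were higher in the 2 h 1,25D-labelled libraries, among them Zfp36 (2.29 ± 0.17) and Zc3h12a (0.98 ± 0.20). At 8 h the median of these 7 was 0.44 in the LPA-labelled libraries and 0.21 with both agents, and Zfp36 (0.39 and 0.27) and Zc3h12a (0.44 and 0.36) did not pass in either. Of 12 other inflammatory genes, mostly cytokines, 8 were tested and 7 were higher in the 2 h 1,25D-labelled libraries. Among them, Ptgs2 stood at 2.80 ± 0.10, Lif at 2.56 ± 0.12 and Il6 at 4.02 ± 0.45. Il6 held only 631 counts over all libraries. Csf2, from the same list, had 63 counts over the 2 h 1,25D-labelled libraries and at most 27 in any other group. Genes with so few counts can pass the filter through the libraries in which they are high. The proportion of 7 in 8 may therefore be too high. By contrast, of 15 tested interferon-response genes 5 were lower and 1 (Rsad2) higher in the 2 h 1,25D-labelled libraries, in which Cxcl10 was higher. Among the lower genes, Stat2 stood at -0.59 ± 0.07 and Ifit3 at -0.68 ± 0.12.

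Markers of blood cells were measured beside the chemokines, since macrophages also make them. Of 11 macrophage and blood cell markers, S100a9 had 0 counts, Adgre1 10 and Ptprc 129 over all 24 libraries. Others were measured at higher counts: Cd14 had 12226, Cd68 10915, Lyz2 4577 and Csf1r 401. The summed TPM of the list was between 36.33 and 38.72 in the 2 h 1,25D-labelled libraries and between 30.54 and 34.77 in 2 h vehicle libraries. Of the 4 markers tested only Cd14, which stromal cells also express, was called in the 2 h 1,25D-labelled libraries (0.75 ± 0.13 on the log2 scale). Of 5 endothelial, 4 adipocyte and 5 chondrocyte markers, 2, 1 and 2 were tested, and only the chondrocyte marker Sox9 was called there, higher.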

How the data were processed

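Messenger RNA of 24 libraries was measured, 3 in each of 8 groups. The authors deposited 1 table per library with estimated counts and TPM (length-corrected transcript shares) per transcript; no source used here names the quantifier, and mm39 is the build listed, per the submitters' processing notes. The estimated counts and TPM are per transcript, per the file headers, and were summed here to 49120 genes with GENCODE names, which covered between 99.42% and 99.57% of counts. Because multi-mapping reads are shared out by estimation, near-identical transcripts can trade counts.

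Summed counts were rounded, filtered (filterByExpr, minimum count 10), scaled by TMM and tested with edgeR 4.0.16 (robust quasi-likelihood F test) in 1 fit of all 8 groups without covariates, in R 4.3.3. P-values were Benjamini-Hochberg adjusted over 16413 genes, with a threshold of 0.05. TPM describe levels. Data simulated for both agents against vehicle at 2 h gave 15912 tested genes. The test recovered 93% of genes changed by 1 and 52% of those changed by 0.5 on the log2 scale. Of its 153 calls, 8 were false. The simulated spread depended only on the level of a gene, without an outlying library, so these rates may not carry over to the 8 h groups. DESeq2 1.42.0, other scalings and filters, a replicate block, the compared groups alone and each library left out were alternatives. Genes were named by membership of the set and of the lists given, with the 3 most similar genes for each well measured member; 1 of these is not reported here. The members and lists were chosen with earlier results of these data known. Library totals of 32964439 to 33842037 counts set the precision, and intervals on counts cover counting error only.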

Additional observations from a re-analysis of the deposited data

Results flagged for a closer look

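The interaction at 8 h differed from 0 for Ackr3 (0.77 on the log2 scale) and for Cxcl10 (0.49): with both agents these genes exceeded the sum of the 2 single effects. The Ackr3 call was lost under 5 alternatives and the Cxcl10 call under 9. Both were lost without the 8 h vehicle replicate 2 and when only the 8 h groups were fitted.

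The effects against vehicle differed between 8 h and 2 h for 7 pairs of gene and single treatment. In the 1,25D-labelled libraries the difference of log2 effects was -1.41 for Cxcl1, -0.97 for Ccl7, -0.84 for Ccl2 and -0.72 for Cxcl10. In the LPA-labelled libraries it was -0.76 for Ackr3, -0.61 for Ccl2 and -0.59 for Cxcl10. With both agents it was -1.40 for Cxcl1, -1.06 for Ccl7, -0.91 for Ccl2, -0.65 for Cxcl10 and 0.49 for Cxcl12.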

How the results depend on the processing

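Of 61 calls of single members in the 16 comparisons, 47 held under every alternative run, 14 were lost under at least 1, and 0 changed sign; of 51 values not called, 10 changed sign. The number of members called was 1 in the LPA-labelled libraries against vehicle at 2 h, 2 with no filter or with DESeq2, and 0 to 1 without 1 library. With both agents against the 1,25D-labelled libraries at 2 h it was 2, and 1 to 2 without 1 library. At 8 h against vehicle it was 5 in the 1,25D-labelled libraries, 3 with no filter or in the compared groups alone and 3 to 5 without 1 library; with the compared groups alone it was 3 rather than 5 in the LPA-labelled libraries and 2 rather than 4 with both agents. The 8 h interaction had 2, 0 in the compared groups alone and 0 to 3 without 1 library. The causes were not tested. Counts of calls over all genes also moved. For the 8 h interaction they numbered 1271, 13 in the compared groups alone, 540 with counts scaled from TPM, 3090 with no filter, 3682 with DESeq2 and 30 to 4200 without 1 library. For the 2 h interaction they numbered 6, 2 in the compared groups alone and 88 with no filter. At 2 h they were 129 in the LPA-labelled libraries against vehicle (373 with no filter, 315 with DESeq2) and 126 with both agents against the 1,25D-labelled libraries (258 and 214). With the compared groups alone, the 8 h counts against vehicle were 1288 rather than 2666 (1,25D-labelled), 566 rather than 1971 (LPA-labelled; 3004 with no filter) and 988 rather than 2759 (both agents). In the same setting both agents gave 807 rather than 1508 against 1,25D-labelled libraries (2385 with no filter) and 1263 rather than 3764 against LPA-labelled ones, and time in vehicle gave 413 rather than 2394. The 8 h minus 2 h effects gave 401 rather than 684 (1,25D-labelled; 1041 with no filter, 375 scaled from TPM), 443 rather than 1108 (LPA-labelled; 3064 with no filter, 2365 with DESeq2) and 742 rather than 1589 (both agents; 990 scaled from TPM).

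Uncalled log2 values that changed sign without 1 library ran from -0.0501 to 0.0522 for Cxcl10 (LPA-labelled, 2 h; 0.0073 with counts scaled from TPM), -0.0339 to 0.0523 for Cxcl12 (both agents against 1,25D-labelled, 2 h), -0.0754 to 0.0709 for Ackr3 (2 h interaction), -0.60 to 0.49 and -0.63 to 0.12 for Cxcl5 (1,25D-labelled and LPA-labelled, 8 h), -0.0631 to 0.21 for Cxcl1 (both agents, 8 h) and -0.0029 to 0.21 for Ccl7 (8 h interaction). For 8 h minus 2 h effects they ran from -0.99 to 0.10 for Cxcl5 and -0.0524 to 0.0883 for Cxcl12 (1,25D-labelled; Cxcl12 0.0029 with median-of-ratios scaling, 0.0074 in the compared groups alone and 0.0040 with DESeq2), and -0.16 to 0.61 for Cxcl5 (both agents).

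The labels give no pairing by replicate number. Of 84 same-numbered pairs of libraries 21 correlated above 0.1, with a median of -0.012, but all 3 pairs of 8 h libraries with both agents and with vehicle did (0.14, 0.629 and 0.561); there the replicate block changed no call of a member. With the replicate block Cxcl12 in the 1,25D-labelled libraries at 8 h was -0.20 (edgeR adjusted p = 0.0601) and Cxcl1 with both agents against them was -0.32 (edgeR adjusted p = 0.0443), so that 4 rather than 5 members were called in the first comparison and 5 rather than 4 in the second. The number of members called with the block was unchanged in the other 14 comparisons. Low counts limit Cxcl2 and Cxcl5.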
